A study of Mus musculus with 36 samples.

Results

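Bone marrow-derived macrophages (BMDMs) with and without a Bmal1 deletion were compared for how strongly they answered lipopolysaccharide (LPS). The quantity described is the interaction of genotype and LPS in cells that received no CCM, the BMAL1 ligand of the study. It is the LPS response of KO macrophages minus that of WT macrophages, on the log2 scale. It rests on 18 of the 36 libraries of the series, with 3 libraries each of WT vehicle and WT LPS and 6 libraries each of KO vehicle and KO LPS. All BMDMs were grown for the study from marrow of female C57BL/6 mice aged 13 to 17 weeks with MCSF, the growth factor that drives macrophage differentiation. KO macrophages carried LysM-Cre and floxed alleles of Bmal1, and WT macrophages came from littermates with the floxed alleles but no Cre. LysM-Cre is expressed from the lysozyme gene Lyz2, so the deletion is limited to cells that have used this myeloid locus, and the floxed alleles are shared by both genotypes. Cells were treated for 6 hours with DMSO vehicle or, as labelled, with 100 nM LPS and DMSO. Polyadenylated RNA was sequenced and read pairs were counted per gene, 13469262 to 28288923 per library. Labels give replicate numbers but do not state that each number is a separate animal, so p-values measure the spread between these libraries.

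BMAL1, encoded by Arntl, pairs with CLOCK on E-box motifs and drives the transcription of Per and Cry genes, whose proteins then repress the pair, and of the REV-ERB genes Nr1d1 and Nr1d2, whose proteins repress Arntl. LPS is a component of the outer membrane of Gram-negative bacteria. It is sensed by TLR4 and activates NF-kB through the adaptor MyD88 and interferon regulatory factors through the adaptor TRIF. The first arm raises cytokines such as TNF and IL-6, and the second raises interferon beta and, through it, interferon-stimulated genes. Macrophage clock proteins are known to bear on inflammatory genes, and the comparison asks whether the response to LPS differs without Bmal1.

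No gene met the threshold for an LPS response that differed between the genotypes. With edgeR's quasi-likelihood test and Benjamini-Hochberg adjustment at 0.05, 0 of 15093 tested genes were called (percent called 0%), and 112 genes (0.742%) had an unadjusted p under 0.05. Of these, 57 had a more positive and 55 a more negative LPS change in KO. The median interaction over all tested genes was 0.01, and the median size was 0.104 on the log2 scale. DESeq2 called 0 genes, with 233 under an unadjusted p of 0.05. The spread was wide, with a biological coefficient of variation of 0.269 over the 18 libraries.

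The mean level of the targeted transcript was lower in KO by an amount that did not pass the test, and the groups overlapped. Levels are given as CPM, the read pairs of a gene per library total scaled with TMM factors. Arntl was at 7.30, 8.64 and 9.69 CPM in WT vehicle and 3.01 to 7.74 CPM (median 7.63) in KO vehicle libraries. The KO mean was 78.3% of WT in vehicle (6.69 ± 1.87 against 8.54 ± 1.2 CPM, SD, n = 6 and 3, exact two-sided permutation p = 0.179) and 73% under LPS (6.63 ± 2.37 against 9.08 ± 1.07 CPM, exact p = 0.131). The smallest p these group sizes allow is 0.0119. KO replicate 6 had the lowest values, 3.01 and 2.19 CPM, and the log2 difference of KO from WT over both treatments went from -0.40 to -0.24 without it. Gene counts include exons outside the deleted part, so the total over the gene is not a full check of the deletion, and in bulk RNA fewer cells with a transcript cannot be told apart from less transcript per cell.

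Several libraries stood apart before any LPS response was considered. Lyz2 and its neighbour Lyz1, another lysozyme gene, separated the genotypes except in KO replicate 2. Lyz1 was at 3.15 to 6.10 CPM in WT vehicle, 44.9 to 50 CPM in KO replicates 1, 3, 4 and 5, 130 CPM in KO replicate 6 and 4.23 CPM in the vehicle library labelled KO replicate 2. Both libraries labelled KO replicate 2 lay at or near WT levels for Lyz1 and for the clock genes Cry1, Nr1d2 and Per2, against their label. Lyz2 had a mean of 9110 ± 2210 CPM in KO and 13000 ± 995 CPM in WT vehicle libraries (SD, n = 6 and 3, exact two-sided permutation p = 0.0595). Both KO replicate 6 libraries lay far from all others on the second principal component, which held 18% of the variance, at -114.5 and -120.4 against -2.16 to 26.3. The 8 macrophage markers (Adgre1, Csf1r, Cd68, Itgam, Fcgr1, Mertk, Cd14 and Lyz2) were above 0 in every library and summed to 11700 to 19100 CPM. Lyz2 alone held 7270 to 14100 CPM in the vehicle libraries, so the sums there mostly follow this gene. The neutrophil list of 10 markers summed to 417 to 1230 CPM, highest in KO replicate 6 at 1180 CPM in vehicle and 1230 CPM under LPS. In vehicle KO replicates 3 and 4 were close to it, at 1120 CPM each. B cell, T cell, erythroid, dendritic and mast cell lists summed to at most 204 CPM, and 8 fibroblast and stromal markers to 491 to 1710 CPM. The part of these differences in the results was not tested. Main results are therefore given for all 18 libraries and, as a choice made after seeing the data, without KO replicates 2 and 6, which leaves 4 KO and 3 WT libraries per treatment.

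Without these libraries the interaction still called 0 of 14886 genes with edgeR, and 310 genes (2.08%) had an unadjusted p under 0.05, 119 more positive and 191 more negative in KO. The coefficient of variation was then 0.119. The smallest adjusted p of edgeR's quasi-likelihood test was 0.267, for Cry1. DESeq2 on the same 14 libraries called Cry1 alone, and voom with sample quality weights called 0 genes.

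The LPS response itself was broad in both genotypes. In WT, LPS changed 9139 of 14501 tested genes (63%), raising 4441 (30.6%) and lowering 4698 (32.4%). In KO it changed 6433 of 13648 genes (47.1%), raising 3060 (22.4%) and lowering 3373 (24.7%), and without KO replicates 2 and 6 it changed 9016 of 13913 (64.8%), raising 4471 (32.1%) and lowering 4545 (32.7%). With vehicle and LPS libraries of the same KO replicate number paired, 9774 genes were called in KO, 4656 raised and 5118 lowered. Counts of KO genes below are from the unpaired fit. These counts depend on the number and spread of libraries, and the lower KO count is no measure of a smaller response. Scaled by total counts alone, where the median of all genes moved to -0.46 in WT and -0.44 in KO, WT had 2551 raised and 8060 lowered genes and KO 1825 and 5708. With upper-quartile scaling 64% of WT calls and 65.1% of KO calls were lowered, against 51.4% and 52.4% in the main fits.

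Genes called in both genotypes moved the same way. Of 13612 genes tested in both, 6115 were called in both and 0 of these had opposite directions. They made up 69.5% of the 8802 WT calls and 95.2% of the 6422 KO calls. Without KO replicates 2 and 6, 8042 genes were called in both, again 0 in opposite directions, which was 91.4% of the WT and 90.8% of the KO calls. Across genes, which are not independent replicates, the log2 changes of both genotypes had a Pearson correlation of 0.98. WT and KO libraries were separate in these comparisons, with no control libraries in common.

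**Figure D1:**
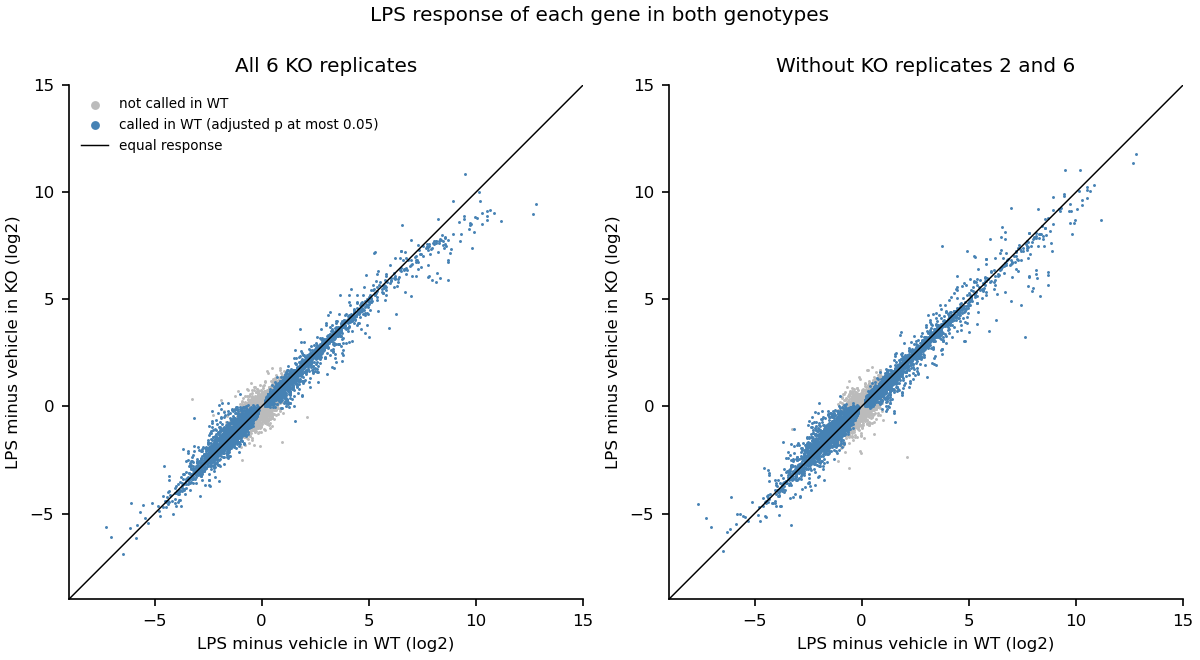
LPS response of each gene in WT (x axis) and KO (y axis), both as log2 fold changes of LPS over vehicle, with all 6 KO replicates (left) and without KO replicates 2 and 6 (right). Points follow the line of equal response, with a correlation across genes of 0.98 in both panels, and the most raised genes lie mostly under the line in the left panel. Genes called in WT are blue.

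The size of the response was close in both genotypes. Among 3713 genes called in WT with a log2 change of at least 1 in either direction, the log2 change in KO was, at the median, 0.968 times that in WT. Raised genes had a median log2 change of 1.90 in WT and 1.84 in KO, and lowered genes -1.55 and -1.48. The log2 changes differed by less than 1 for 96.1% of these genes, with a median difference in size of 0.136. Genes chosen as large in WT tend to be smaller in any other set of libraries. The ratio was therefore also taken for genes chosen without 1 WT replicate. Each LPS library was set against the vehicle library of the same number, although no source ties these numbers to 1 animal. Held-out WT pairs then had a ratio of 0.948 ± 0.034 (SD, n = 3) and KO pairs 0.935 ± 0.0365 (n = 6). Without KO replicates 2 and 6 the KO ratio was 0.933 ± 0.0405 (n = 4). The difference between the genotypes was smaller than the spread between these pairs.

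Because a p that misses the threshold does not show equal responses, the 95% interval of each interaction was examined. Of 9445 genes that responded to LPS in either genotype, 6094 (64.5%) had an interval that lay within 1 on the log2 scale on both sides of 0, that is, within a 2-fold difference of the response. The median interval reached 0.683 to either side of the estimate. Over all tested genes the share was 55.1%. Without KO replicates 2 and 6, intervals reached 0.327 to either side, and 79.7% of the LPS genes and 71.1% of all tested genes lay within 1. For the remaining genes a difference of that size was not resolved at this spread.

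The narrowest intervals among genes with a WT log2 change of at least 3 belonged to Slc31a2, Casp4, Slfn5, Lgals9 and Sp110. Casp4, which encodes the caspase that senses LPS in the cytosol, was at 13.8, 12.5 and 11.8 CPM in WT vehicle and 213, 212 and 213 CPM in WT LPS libraries. In KO it ranged from 11.7 to 13.9 CPM (median 13.3) in vehicle and from 199 to 246 CPM (median 219) under LPS. Vehicle and LPS libraries were far apart in both genotypes, while the genotypes overlapped within each treatment. Its log2 LPS change was 4.08 ± 0.07 (SE) in WT and 4.04 ± 0.09 in KO, and the interaction was -0.02 with an interval of -0.28 to 0.25. Lgals9, which encodes the lectin galectin-9, rose by 3.05 in WT and 3.07 in KO, with an interaction of 0.04 (-0.22 to 0.30). Sp110, an interferon-inducible nuclear body gene, had an interaction of 0.04 (-0.23 to 0.31), Slfn5 of the interferon-inducible Schlafen family -0.03 (-0.30 to 0.25), and Slc31a2, a copper transporter gene, 0.01 (-0.27 to 0.28).

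**Figure D2:**
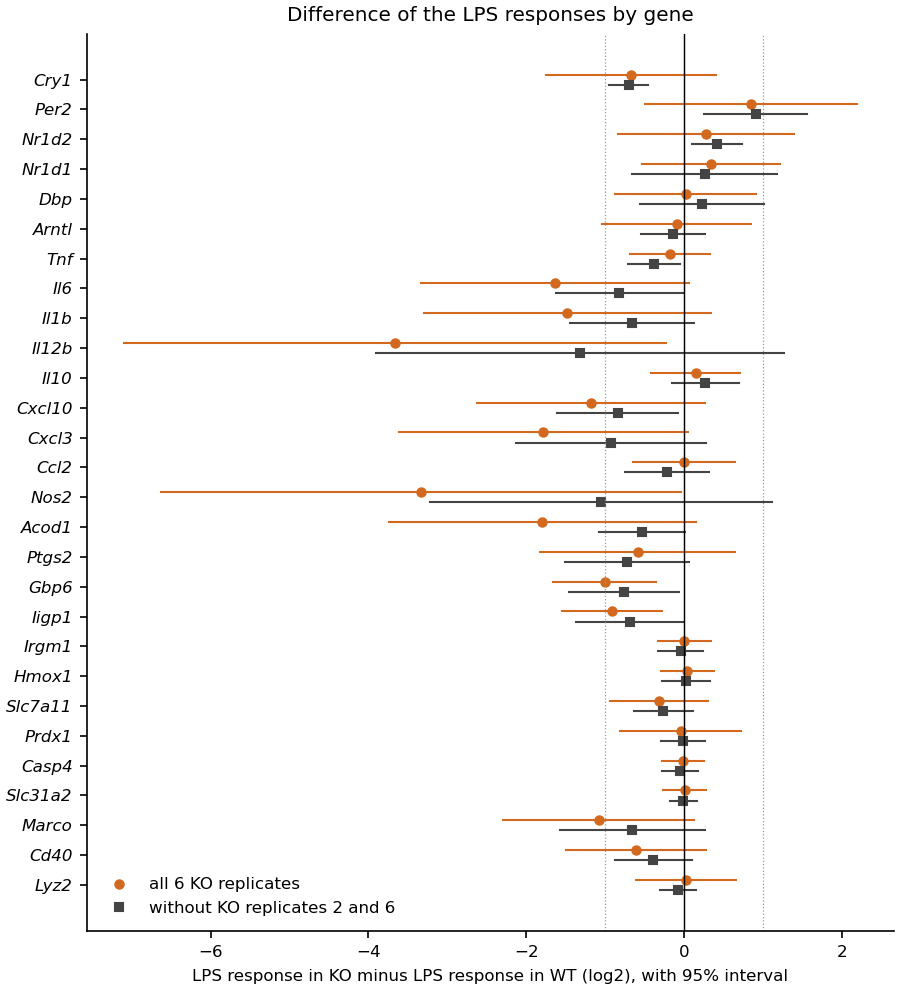
Interaction (KO minus WT log2 LPS change, x axis) of 28 genes with 95% intervals, for all 18 libraries and without KO replicates 2 and 6. For all libraries Casp4 and Tnf have short intervals around 0 (-0.28 to 0.25 and -0.69 to 0.32), while the Tnf interval without the 2 replicates lies below 0. Cry1 lies below 0 with a long interval for all libraries (-1.75 to 0.40) and a short one without the 2 replicates (-0.95 to -0.46).

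Clock genes carried differences of genotype as well as of LPS. Cry1, a repressor of CLOCK and BMAL1, had the smallest interaction p of all genes without KO replicates 2 and 6. Over all 18 libraries its p ranked 794 in the unpaired fit. With libraries of the same replicate number paired, it ranked 3, and 0 genes were called. The paired interaction was -0.634 (unadjusted p = 0.00108 with edgeR's quasi-likelihood test), although no source ties these numbers to 1 animal. Cry1 lies at chr10:85131700-85185064 on the minus strand of mm10. BMAL1 with CLOCK binds E-boxes, and the E-box searched here was CACGTG, on either strand, which is present in 6.02% of 32851 mouse windows of the 250 bases before a start site. The Cry1 window, chr10:85185055-85185304 on the minus strand, is shown because it holds 1 match, in capitals, starting 60 bases before the start site of the RefSeq annotation of GRCm38.p6. A match is a description of letters and no evidence of binding in these cells.
Cry1: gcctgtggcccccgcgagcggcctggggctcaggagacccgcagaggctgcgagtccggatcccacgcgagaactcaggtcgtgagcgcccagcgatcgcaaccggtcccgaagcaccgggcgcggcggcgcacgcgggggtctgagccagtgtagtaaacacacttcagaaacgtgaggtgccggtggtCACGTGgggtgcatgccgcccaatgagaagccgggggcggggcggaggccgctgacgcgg
Of the 22 genes on the clock list 17 had a window, and 5 of them, Bhlhe41, Ciart, Cry1, Per1 and Tef, held the E-box.

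Cry1 was at 7.15, 7.80 and 8.62 CPM in WT vehicle and 26.1, 27.8 and 25.1 CPM in WT LPS libraries. KO replicates 1, 3, 4 and 5 had 33, 31, 29.8 and 29.6 CPM in vehicle and 58.1, 70.2, 63.4 and 64.6 CPM under LPS. The libraries labelled KO replicate 2 had 8.14 and 25.9 CPM, within the WT range, and KO replicate 6 had 17.6 and 31.2 CPM. LPS thus raised Cry1 in both genotypes, from a higher starting level in 5 of 6 KO replicates. The log2 LPS change was 1.76 ± 0.10 (SE) in WT and 1.06 ± 0.34 in KO, or 1.08 ± 0.07 without KO replicates 2 and 6. The interaction was -0.67 (95% interval -1.75 to 0.40, unadjusted p = 0.204) over all libraries and -0.71 (-0.95 to -0.46, unadjusted p = 1.8e-05, adjusted p = 0.267 with edgeR's quasi-likelihood test) without the 2 replicates. DESeq2 gave an adjusted p of 0.00503 for the same 14 libraries. Cry1 was among the genes whose levels led to the doubt about KO replicate 2, so its value without that replicate is not independent of the choice.

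The direction of the Cry1 difference depended on the scale. Mean CPM rose 3.35-fold in WT and 2.08-fold in KO without replicates 2 and 6, while the rise in CPM was 18.5 in WT and 33.2 in those KO libraries, which is 14.7 CPM more. Over all 6 KO replicates the rise was 27.4 CPM and 2.10-fold. On the log2 scale the LPS response of Cry1 was therefore the smaller one in KO, and in CPM the larger one.

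The other clock genes had differences with wider intervals. Per2, a partner of CRY1 in repression, was at 3.17, 2.48 and 3.32 CPM in WT vehicle and 1.70, 1.58 and 1.67 CPM in WT LPS libraries. In KO it was at 2.28 to 9.42 CPM (median 5.76) in vehicle and 1.92 to 8.91 CPM (median 5.81) under LPS. WT vehicle and WT LPS libraries did not overlap, whereas KO vehicle and KO LPS libraries did. Per2 fell in WT (log2 change -0.85 ± 0.22) and had a change of -0.02 ± 0.41 in KO, with an interaction of 0.85 (-0.50 to 2.19), or 0.90 (0.25 to 1.56, unadjusted p = 0.00993) without KO replicates 2 and 6. Nr1d2, which encodes REV-ERB beta, fell from 46.4, 46.2 and 50.5 CPM to 18, 18.1 and 20.4 CPM in WT. KO replicates 1, 3, 4 and 5 went from 18.8 to 22.9 CPM down to 9.64 to 13.3 CPM. Its interaction was 0.27 (-0.85 to 1.39), or 0.41 (0.10 to 0.73, unadjusted p = 0.0129) without the 2 replicates. None of these values passed adjustment with edgeR.

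The clock genes Dbp, Per1 and Nr1d1 fell with LPS in both genotypes. Dbp, a transcription factor driven by E-boxes, had log2 changes of -2.15 ± 0.27 in WT and -2.16 ± 0.26 in KO, with an interaction of 0.02 (-0.88 to 0.91). Per1 changed by -0.83 ± 0.09 and -0.64 ± 0.12 (interaction 0.21, -0.18 to 0.59), and Nr1d1, which overlaps Thra, by -1.06 ± 0.25 and -0.74 ± 0.25 (interaction 0.34, -0.53 to 1.22). Npas2, a CLOCK paralogue, had changes of -0.80 ± 0.34 in WT, which did not pass the test, and -1.80 ± 0.37 in KO, with an interaction of -0.99 (-2.21 to 0.23). Mean CPM of Npas2 under LPS was 0.579 times that in vehicle in WT and 0.288 times in KO. Without KO replicates 2 and 6 it was 0.224 times in KO. Its LPS libraries held 4 to 20 counts each. Of 21 tested clock genes LPS raised 3 and lowered 10 in WT and raised 2 and lowered 10 in KO. Of all tested genes it raised 30.6% and lowered 32.4% in WT, and raised 22.4% and lowered 24.7% in KO. The interaction called 0 of them, with 11 positive and 10 negative values. Over all libraries 0 of 21 had an unadjusted p under 0.05, beside 0.742% of all genes. Without KO replicates 2 and 6 there were 4 of 21, beside 2.08% of all genes. Cry1, Nr1d2 and Per2 were used to doubt KO replicate 2, so the count without it is not independent of that choice.

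**Figure D3:**
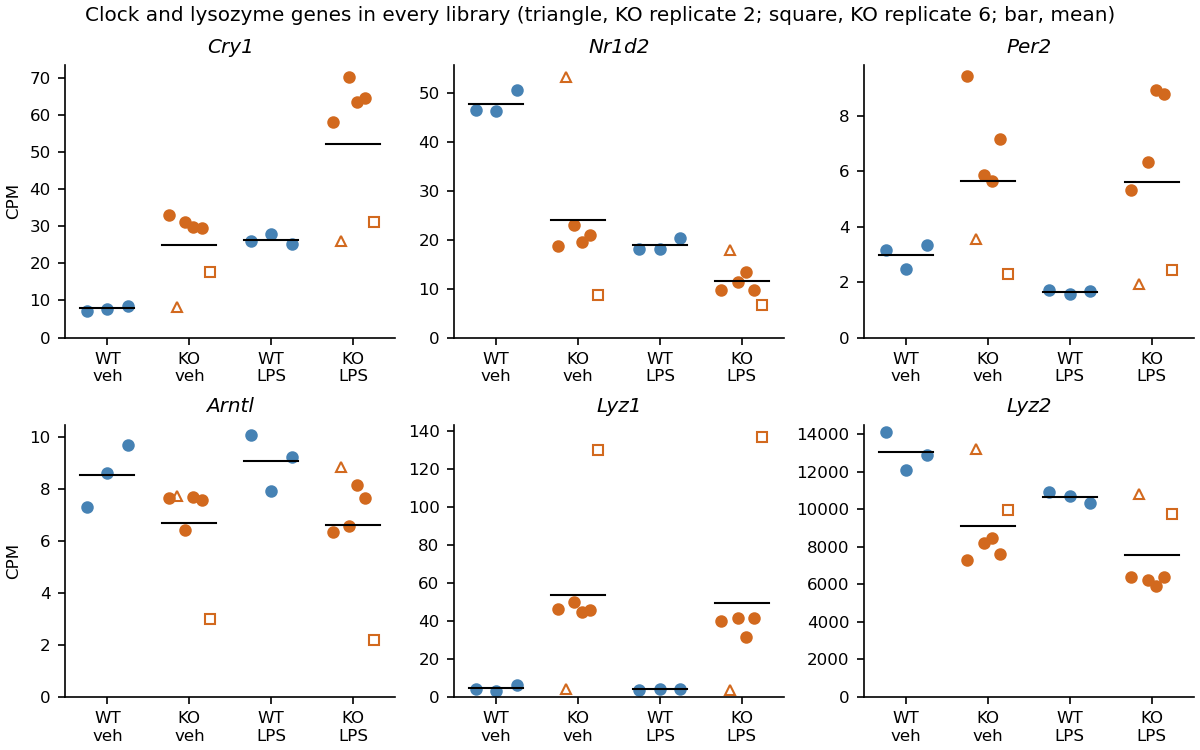
CPM of clock genes and lysozymes in each of the 18 libraries (y axis), by genotype and treatment (x axis), with KO replicates 2 and 6 marked. Cry1 in the libraries labelled KO replicate 2 (8.14 and 25.9 CPM) sits with WT, and Lyz1 in KO replicate 6 (130 and 137 CPM) above all others.

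Differences between the genotypes at 1 treatment were few and stand behind the interaction. Over all libraries edgeR called 0 genes for KO against WT in vehicle (118 at an unadjusted p under 0.05) and 0 under LPS (105). Without KO replicates 2 and 6 it called 5 of 14310 genes in vehicle (0.0349%), namely Cry1 (log2 1.98), Cx3cr1 (1.09), Lyz1 (3.36), Lyz2 (-0.71) and Nr1d2 (-1.21). Under LPS it called 5 of 13610 (0.0367%), namely Cry1 (1.28), Lyz1 (3.28), Lyz2 (-0.77), Per2 (2.15) and Rps27rt (1.29). Cry1, Lyz1, Lyz2 and Nr1d2 or Per2 were used to doubt KO replicate 2, so these calls describe the remaining libraries. For Lyz2 and Lyz1 the interaction was 0.02 and 0.06 over all libraries, and -0.08 and -0.09 without KO replicates 2 and 6.

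The LPS sensing genes differed between the genotypes by little at most. All 17 genes of the receptor and adaptor list had an interaction interval within 1, with estimates from -0.12 to 0.15, beside 55.1% of all tested genes. LPS raised 13 of them in WT and 12 in KO, beside 30.6% and 22.4% of all tested genes. It lowered 2 in each genotype, beside 32.4% and 24.7%. Ticam2, which encodes the TRIF-linked adaptor TRAM, had the smallest interaction p of the list. It was at 8.59, 9.71 and 7.94 CPM in WT vehicle and 19.3, 17.7 and 19.8 CPM in WT LPS libraries, and at 5.69 to 9.57 (median 7.51) and 14.2 to 21.1 CPM (median 19.1) in KO. Its interaction was 0.15 (-0.30 to 0.61, unadjusted p = 0.489). Irak3, a brake on MyD88 signaling, rose by 3.83 ± 0.07 in WT and 3.80 ± 0.17 in KO.

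NF-kB subunits and inhibitors rose in both genotypes. LPS raised 14 of 14 in WT and 13 of 14 in KO, beside 30.6% and 22.4% of all tested genes. Their median log2 changes were 2.71 and 2.88, with a median interaction of -0.02. Of the 14 intervals 13 lay within 1, beside 55.1% of all tested genes. Tnip3, an inhibitor that binds the A20 protein, rose by 2.57 ± 0.13 in WT and 2.87 ± 0.15 in KO, and its interaction of 0.33 (-0.16 to 0.82) had the smallest p of the group. Nfkbib, which encodes the inhibitor IkB beta, had an interaction of 0.00 (-0.64 to 0.65).

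Inflammatory cytokines rose strongly in both genotypes, with mostly negative interaction estimates of which none was called. LPS raised 16 of 17 tested cytokines in WT and 16 in KO, beside 30.6% and 22.4% of all tested genes. Of 17 interaction estimates 15 were negative, beside 7109 of 15091 for all genes. The median interaction was -0.47, or -0.32 without KO replicates 2 and 6, against 0.01 and -0.01 over all genes. The median log2 LPS change over the list was 8.12 in WT, 6.00 in KO and 6.16 in KO without these replicates, differences of medians that need not belong to 1 gene. Only 5 of 17 intervals lay within 1, beside 55.1% of all tested genes. Without the 2 replicates it was 7 of 17, beside 71.1%.

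Tnf, the early cytokine of the NF-kB arm, was at 26.1, 21.4 and 24.1 CPM in WT vehicle and 1730, 1790 and 1610 CPM in WT LPS libraries. In KO it was at 21.7 to 32.6 CPM (median 26.3) and 1280 to 2460 CPM (median 1680). The genotypes overlapped in both treatments. Tnf rose by 6.18 ± 0.10 in WT and 5.98 ± 0.20 in KO, with an interaction of -0.18 (-0.69 to 0.32), or -0.38 (-0.71 to -0.06, unadjusted p = 0.0242) without KO replicates 2 and 6.

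The kappa B consensus, the site of NF-kB, is found in 3.9% of the 32851 windows. The window of Il6, a cytokine of fever and the acute phase, at chr5:30012864-30013113 on the plus strand (GRCm38.p6, RefSeq), holds 1 match starting 44 bases before the start site, in capitals. The window of Cxcl10, a chemokine for T cells, at chr5:92348890-92349139 on the minus strand, holds 2 matches, at 159 and 103 bases. Both are shown because these genes rose by about 10 on the log2 scale in WT and are described next.
Il6: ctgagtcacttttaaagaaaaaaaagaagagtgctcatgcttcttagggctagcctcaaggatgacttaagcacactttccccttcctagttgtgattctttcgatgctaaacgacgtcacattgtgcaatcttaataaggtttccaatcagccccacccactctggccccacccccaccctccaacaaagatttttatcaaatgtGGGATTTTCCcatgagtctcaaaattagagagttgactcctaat
Cxcl10: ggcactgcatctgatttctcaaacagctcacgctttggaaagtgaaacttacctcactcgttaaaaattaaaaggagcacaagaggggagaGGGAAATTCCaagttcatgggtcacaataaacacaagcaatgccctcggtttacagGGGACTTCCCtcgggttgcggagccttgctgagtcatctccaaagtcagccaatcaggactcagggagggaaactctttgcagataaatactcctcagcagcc
The match rate in the lists was 3 of 12 cytokines, 5 of 13 chemokines and 4 of 30 interferon-stimulated genes with a window.

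Il6 was at 0.443, 0.222 and 0.326 CPM in WT vehicle and 525, 562 and 404 CPM in WT LPS libraries, and at 0.163 to 3.07 (median 0.466) and 330 to 596 CPM (median 384) in KO. LPS libraries of both genotypes overlapped, and the highest vehicle value, 3.07 CPM, was that of the library labelled KO replicate 2. Il6 rose by 10.5 ± 0.21 in WT and 8.88 ± 0.62 in KO, with an interaction of -1.64 (-3.33 to 0.06, unadjusted p = 0.058), or -0.82 (-1.63 to -0.02, unadjusted p = 0.0456) without KO replicates 2 and 6. Il12b, the shared subunit of IL-12 and IL-23, had the most negative estimate of the cytokines, -3.66 (-7.10 to -0.23, unadjusted p = 0.0379). Its level was 0.0369, 0.00 and 0.178 CPM in WT vehicle and 674, 639 and 376 CPM in WT LPS libraries, and 0.0466 to 4.09 (median 0.172) and 118 to 658 CPM (median 388) in KO. The value of 4.09 CPM came from the vehicle library labelled KO replicate 2, and without KO replicates 2 and 6 the interaction of Il12b was -1.32 (-3.90 to 1.27). Il1b, the inflammasome-processed cytokine, likewise had 24.0 CPM in that library against 1.84 to 2.76 CPM in WT vehicle, and its interaction went from -1.48 (-3.30 to 0.33) to -0.66 (-1.44 to 0.13).

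Il1a, another alarm cytokine of the IL-1 family, was at 1.62, 1.64 and 1.45 CPM in WT vehicle and 1300, 1540 and 1150 CPM in WT LPS libraries. The interaction of Il1a was -1.21 (-2.56 to 0.15), or -0.64 (-1.20 to -0.08) without KO replicates 2 and 6, and its vehicle level was highest, at 8.55 CPM, in the library labelled KO replicate 2. Tnfsf15 had -1.37 (-4.03 to 1.28) and Csf3, which encodes the granulocyte growth factor, -1.08 (-3.45 to 1.30). At the other end of the list were Lif (0.05, -0.93 to 1.04) and Tnfsf9 (0.24, -0.91 to 1.40). Il10, the anti-inflammatory cytokine, rose by 3.11 ± 0.15 in WT and 3.22 ± 0.18 in KO, with an interaction of 0.14 (-0.43 to 0.71). Csf1, which encodes MCSF, had an interaction of 0.00 (-0.79 to 0.78). Ifnb1 (interferon beta) had 0 counts in the 3 WT vehicle libraries and 1.93, 1.28 and 1.67 CPM in WT LPS libraries. This is a rise of at least 44.5-fold, taking 3 counts over the vehicle group as the floor. KO LPS libraries had 0.983 to 3.5 CPM of Ifnb1 (median 1.47). Il1f6, which encodes IL-36 alpha, had 0 counts in all vehicle libraries and rose at least 158-fold in WT and at least 295-fold in KO, bounds that differ with the number of libraries. No difference between genotypes could be read for these low genes.

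Of 218 genes with a WT log2 change of at least 5, the vehicle library labelled KO replicate 2 was the highest of the 9 vehicle libraries for 84 (38.5%), compared with 9.2% of all tested genes. The median interaction of these 218 genes was -0.35 over all libraries, -0.19 without KO replicate 2, -0.38 without KO replicate 6 and -0.22 without both. The genes were chosen by their WT response, which also enters the interaction. What part the raised vehicle values play was not tested.

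Chemokines and enzymes of the activated macrophage held further examples. LPS raised 19 of 21 chemokines in WT and 18 in KO, beside 30.6% and 22.4% of all tested genes. The median interaction was -0.09, or -0.21 without KO replicates 2 and 6, and 13 of 21 were negative, beside 7109 of 15091 for all genes. The positive estimates included Ccl12 (0.73, -0.36 to 1.83) and Ccl17 (0.75, -1.37 to 2.87), and the highest was that of Cxcl11, which had almost no counts in vehicle libraries. Ccl2, which recruits monocytes, had log2 changes of 4.14 ± 0.16 and 4.12 ± 0.22 and an interaction of 0.00 (-0.65 to 0.64). Cxcl10 was at 1.22, 2.08 and 0.741 CPM in WT vehicle and 1290, 1320 and 1380 CPM in WT LPS libraries, and 0.931 to 8.63 (median 2.29) and 1080 to 1620 CPM (median 1320) in KO. Its LPS levels overlapped between the genotypes, and the interaction of -1.19 (-2.63 to 0.26) was -0.84 (-1.61 to -0.08, unadjusted p = 0.0331) without KO replicates 2 and 6. Cxcl10 overlaps Art3. Cxcl3, a neutrophil chemokine, had the smallest p of the list, with an interaction of -1.79 (-3.62 to 0.04), or -0.93 (-2.13 to 0.27) without the 2 replicates. Cxcl11, a chemokine of the same receptor as Cxcl10, had 0 counts in the 6 KO vehicle libraries and rose at least 533-fold in KO.

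Of 13 genes for nitric oxide, prostaglandin and itaconate synthesis LPS raised 10 in WT and 9 in KO. The shares of all tested genes raised were 30.6% and 22.4%. Of the 13 interaction estimates 11 were negative, beside 7109 of 15091 for all genes. Nos2, the inducible nitric oxide synthase, went from 0.0738, 0.00 and 0.0593 CPM to 346, 380 and 397 CPM in WT. KO libraries had 0.00 to 2.36 CPM (median 0.0675) in vehicle and 180 to 430 CPM (median 339) under LPS. The highest vehicle value was again that of the library labelled KO replicate 2. Its interaction of -3.34 (-6.62 to -0.05, unadjusted p = 0.0471) was -1.06 (-3.22 to 1.10) without KO replicates 2 and 6. Acod1, the itaconate-forming enzyme, had -1.80 (-3.75 to 0.14) and -0.54 (-1.08 to 0.01), and Ptgs2, the inducible cyclooxygenase, -0.59 (-1.83 to 0.65) and -0.73 (-1.51 to 0.05). Slc7a2, an arginine transporter gene, rose by 5.85 ± 0.11 and 5.82 ± 0.31 in WT and KO.

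**Figure D4:**
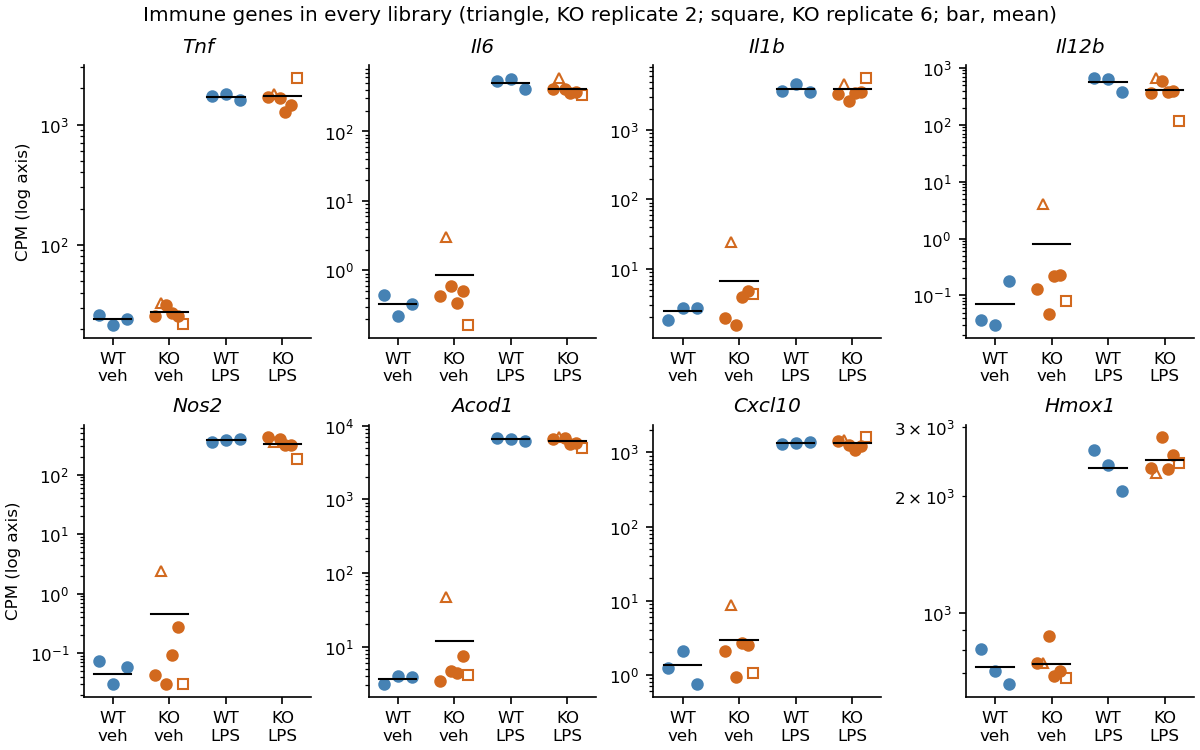
CPM of LPS-raised genes in each of the 18 libraries (y axis, log scale, values under 0.03 CPM drawn at 0.03), by genotype and treatment, with KO replicates 2 and 6 marked. LPS libraries of both genotypes overlap for each gene, and in vehicle the library labelled KO replicate 2 is highest for Il12b (4.09 CPM), Nos2 (2.36 CPM) and Il6 (3.07 CPM).

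Interferon-stimulated genes, the targets of the TRIF arm, rose in every case: 38 of 38 in WT, 38 of 38 in KO and 38 of 38 without KO replicates 2 and 6, beside 30.6% of all genes raised in WT and 22.4% in KO. The median log2 change was 6.32 in WT and 6.33 in KO. The median interaction was -0.10 with 26 of 38 negative, beside 7109 of 15091 for all genes. Irgm1, an interferon-inducible GTPase, rose by 4.27 ± 0.06 in WT and 4.25 ± 0.12 in KO (interaction 0.00, -0.34 to 0.33). Iigp1, another GTPase of that class, had the smallest p of the group. Its level was 0.332, 0.443 and 0.415 CPM in WT vehicle and 150, 132 and 142 CPM in WT LPS libraries, and 0.419 to 1.11 (median 0.632) and 105 to 147 CPM (median 127) in KO. The interaction of Iigp1 was -0.91 (-1.55 to -0.28, unadjusted p = 0.00747), or -0.69 (-1.38 to -0.01) without KO replicates 2 and 6. Gbp6, a guanylate-binding protein gene, had -1.01 (-1.66 to -0.35, unadjusted p = 0.00468) and -0.77 (-1.46 to -0.07). Gbp6 overlaps Gm43302, and near-identical members of the Gbp family may share reads.

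No metabolic or antioxidant gene was called by the interaction. Of 14 NRF2 and glutathione genes LPS raised 10 in WT and 9 in KO, beside 30.6% and 22.4% of all tested genes. Hmox1, the heme-degrading enzyme, was at 806, 709 and 654 CPM in WT vehicle and 2620, 2400 and 2060 CPM in WT LPS libraries, and at 678 to 869 (median 725) and 2290 to 2830 CPM (median 2390) in KO. Hmox1 rose by 1.73 ± 0.10 and 1.74 ± 0.10, an interaction of 0.04 (-0.30 to 0.37). Slc7a11, the cystine transporter gene, had an interaction of -0.32 (-0.94 to 0.29). Of 19 glycolysis and HIF-1 genes LPS raised 13 in WT and 10 in KO, beside the same shares of all tested genes. Pfkfb3, an activator of glycolysis, had an interaction of -0.01 (-0.75 to 0.73), and Gapdh, a glycolytic enzyme gene whose counts are uncertain because of near-identical copies, had the most negative one of the list, -2.54 (-5.13 to 0.05), or -1.20 (-3.36 to 0.96) without KO replicates 2 and 6. Gapdh was at 64.1, 6.69 and 7.88 CPM in WT vehicle and 13.3, 58.3 and 76 CPM in WT LPS libraries, and at 7.08 to 102 CPM (median 19.7) and 10.2 to 19.7 CPM (median 11.7) in KO, with overlap between all groups. Of 13 cholesterol genes LPS raised 9 in WT and 7 in KO, beside the same shares of all tested genes. Sqle, a sterol synthesis enzyme, had an interaction of 0.12 (-0.21 to 0.45).

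No antigen presentation, scavenger or feedback gene was called by the interaction either. LPS raised 15 of 15 antigen presentation and costimulation genes in WT and 11 in KO, or 13 without KO replicates 2 and 6. The shares over all tested genes were 30.6%, 22.4% and 32.1%. Cd40, a costimulatory receptor, rose by 8.39 ± 0.14 and 7.77 ± 0.36, with an interaction of -0.62 (-1.50 to 0.27). Marco, a scavenger receptor for bacteria, had -1.08 (-2.29 to 0.13), or -0.66 (-1.57 to 0.26) without the 2 replicates. Of 13 anti-inflammatory and feedback genes LPS raised 11 in WT and 10 in KO, beside 30.6% and 22.4% of all tested genes. Their median interaction was 0.09. On a list of 8 genes known as restrained by BMAL1 or REV-ERB in monocytes and macrophages, which was drawn up with earlier results of these data known, LPS raised 7 in WT and 6 in KO, beside 30.6% and 22.4% of all tested genes. The interaction was negative for 7 of 8, beside 7109 of 15091 for all genes, from -1.64 (Il6) to 0.20 (Ccl8). Ccl8 had at most 3 counts in each vehicle library, so no difference between genotypes could be read for it. Without KO replicates 2 and 6 the range of the list was -0.82 (Il6) to 1.13 (Ccl8). Il6 and Cx3cr1, 2 of 8, then had an unadjusted p under 0.05, beside 2.08% of all tested genes. On other lists 3 of 17 cytokines and 2 of 21 chemokines had one in that fit.

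Cell cycle genes fell in both genotypes, and most of their interaction estimates were positive, without any call. LPS lowered 16 of 19 in WT and 16 in KO, beside 32.4% and 24.7% of all tested genes. Their median log2 changes were -1.51 and -1.23. The interaction estimate was positive for 18 of 19, beside 7982 of 15091 of all genes, with a median of 0.28, and for 17 of 19 without KO replicates 2 and 6, with a median of 0.31. Members of such a list move together and are not independent of each other. Ccnb2, which encodes cyclin B2, was at 32.5, 30.4 and 22.7 CPM in WT vehicle and 7.79, 8.50 and 9.19 CPM in WT LPS libraries, and at 19.6 to 27.4 (median 21.1) and 5.80 to 13.2 CPM (median 9.17) in KO. The KO vehicle levels were mostly below those of WT, and the LPS levels overlapped. Ccnb2 had an interaction of 0.51 (-0.06 to 1.09, unadjusted p = 0.0763). Cdkn1a, an inhibitor of cyclin-dependent kinases, rose in both genotypes with an interaction of -0.01 (-0.50 to 0.48).

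**Figure D5:**
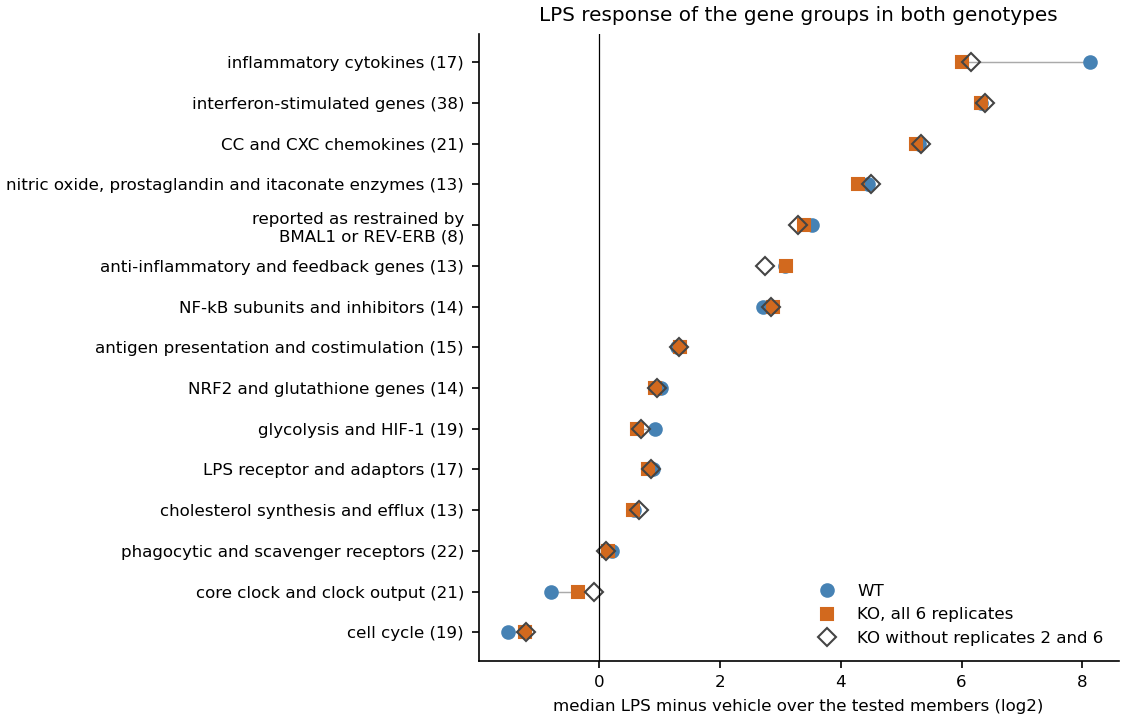
Median log2 LPS change (x axis) over the tested members of 15 gene groups (y axis, number of members in brackets), in WT, in all 6 KO replicates and without KO replicates 2 and 6. The medians lie farthest apart for inflammatory cytokines (8.12 in WT and 6.00 in KO) and are close for interferon-stimulated genes (6.32 and 6.33), with 0 interactions called in any group.

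Of the genes with the smallest interaction p in each direction none passed adjustment (adjusted p of 1 with edgeR's quasi-likelihood test for each of the 10). The 5 with a more positive LPS change in KO were Cenpn, Rps27rt, Nsl1, Sgo2a and Gm13509. Cenpn, a centromere protein gene, fell from 9.18, 9.53 and 7.05 CPM to 1.17, 1.88 and 1.79 CPM in WT, and from 4.88 to 7.11 (median 6.12) to 1.58 to 3.05 CPM (median 2.08) in KO. Its interaction was 0.88 (0.24 to 1.52, unadjusted p = 0.00988). Nsl1, a kinetochore gene that overlaps Gm38188, had 0.75 (0.19 to 1.32), and Sgo2a, a protector of centromere cohesion that overlaps Kctd18, 1.22 (0.30 to 2.13). Rps27rt, a copy of a ribosomal protein gene that may share reads with it, ranged from 31.9 to 88.6 CPM within the WT vehicle libraries, and Gm13509 is annotated as a processed pseudogene.

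The 5 with a more negative change in KO were Gm44126, Kcnq1ot1, Fam185a, Gbp6 and Iigp1. Gm44126, a processed pseudogene, had an interaction of -2.18 (-3.39 to -0.97, unadjusted p = 0.0014) at levels of 0.676 to 4.23 CPM. Kcnq1ot1, the long RNA antisense to Kcnq1, had -1.02 (-1.64 to -0.40), and since the strand setting of the counting was not given, its reads and those of Kcnq1 cannot be told apart. Fam185a had -0.89 (-1.45 to -0.33). Its CPM fell from 3.58, 3.10 and 2.67 to 1.82, 1.67 and 1.75 in WT and from 3.25 to 4.37 (median 3.96) to 0.799 to 1.41 (median 1.21) in KO. Fam185a was chosen here by its interaction p, so these levels are no separate evidence of a difference.

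The genes with the largest response in both genotypes showed the span of the effect. Nos2, Il12b, Cxcl11, Il1f6 and Acod1 rose most. Slco2b1, a transporter of organic anions, was among the most lowered, from 28.1, 28.9 and 30.6 CPM to 0.176, 0.299 and 0.438 CPM in WT and from 16.7 to 29.8 (median 22.7) to 0.0563 to 0.278 CPM (median 0.197) in KO. Its interaction was -0.38 (-1.30 to 0.53). Zdhhc14, a palmitoyltransferase gene, had -0.13 (-0.70 to 0.43), and St6gal1, which adds sialic acid to glycans, 0.30 (-0.62 to 1.22). The noncoding genes Gm5086 and Gm15513 also fell by over 5 on the log2 scale in both genotypes.

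The same difference was computed in the 18 other libraries, in which all cells had also received CCM. It called 0 of 15086 genes (98 or 0.65% at an unadjusted p under 0.05), and 0 of 14843 without KO replicates 2 and 6 (255 at an unadjusted p under 0.05). Replicates carry the same numbers in both sets of libraries, so the sets may share animals. Cry1 had an interaction of -0.68 with CCM, or -0.74 without KO replicates 2 and 6 (unadjusted p = 5.81e-05, adjusted p = 0.862 with edgeR's quasi-likelihood test). Without those replicates it again had the smallest p of all genes. Its level was among those used to doubt KO replicate 2, so this rank is not independent of the choice. Cry1 was at 7.73, 7.12 and 7.73 CPM in WT CCM and 22.1, 20.7 and 20.8 CPM in WT LPS+CCM libraries. KO replicates 1, 3, 4 and 5 had 36.6, 37.1, 36.7 and 34.0 CPM with CCM and 54.2, 70.0, 61.4 and 57.6 CPM with LPS and CCM. The libraries labelled KO replicate 2 were again at WT levels, 6.46 and 19.8 CPM.

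For other genes the values without and with CCM, each over all libraries of its set, often differed in sign or size. Il6 had an interaction of -1.64 without and 0.03 with CCM, Tnf -0.18 and 0.27, Il12b -3.66 and -0.78, Nos2 -3.34 and 0.63, and Cenpn 0.88 and 0.04. Gbp6 had -1.01 and 0.12, Iigp1 -0.91 and 0.47, Fam185a -0.89 and -0.04, and Gm44126 -2.18 and -0.27. In the set without CCM, Il6, Il12b and Nos2 were high outliers in the vehicle library labelled KO replicate 2. Leaving out KO replicates 2 and 6 made their interactions without CCM smaller in size and that of Tnf larger. With these replicates left out, Gm44126 had -2.32 without and -0.54 with CCM. The difference between the sets, and the part the KO replicate 2 library plays in it, were not tested.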

How the data were processed

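RNA-seq of 18 BMDM libraries was examined, grouped by genotype and treatment as labelled. Per the labels and the study's methods, the authors trimmed reads with fastp, aligned them to mm10 with HISAT2 2.0.5 and ran featureCounts 1.5.0-p3 to assign read pairs to genes. The deposited values are raw counts for 54532 genes, of which 25387 were 0 in all 18 libraries. Of 36 count columns, 18 were used for the interaction and the 18 with CCM for the comparison set beside it, and 0 columns belonged to no sample of the series. The strand setting of the counting was not given in the sources used here, so overlapping genes are named as uncertain. Positions come from the deposited table, and promoter windows from RefSeq (GRCm38.p6).

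From the counts, fits were made with edgeR 4.0.16 in R 4.3.3 (filterByExpr, TMM, glmQLFit, glmQLFTest, no block, Benjamini-Hochberg at 0.05), each on its own groups. All p-values of single genes, adjusted or not, are from edgeR's quasi-likelihood test unless another is named, and are two-sided. The interaction was the genotype by LPS term over 18 libraries. Its 95% interval is the estimate with its standard error times the t quantile of the fit. DESeq2 1.42.0, limma 3.58.1 (voom), RLE, upper-quartile and total-count scaling, no filter, a replicate block, all 36 libraries in 1 fit and leaving out libraries were alternatives. The scripts were tested on simulated data. Whether replicate numbers pair vehicle with LPS libraries was examined by correlating, across genes, how far each library lay from its group mean, as no source ties a number to 1 animal. The correlation was 0.26 to 0.771 for the 6 KO numbers, all over 0.1, so LPS in KO was also given paired. In WT it was 0.0687 to 0.171, and the main fits of WT and of the interaction were not paired. The held-out ratios of response size did take each LPS library with the vehicle library of its number.

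Libraries held 13469262 to 28288923 read pairs on genes. No 2 libraries of a group agreed within counting noise, the lowest chi-square divided by its degrees of freedom being 4.08, and precision is limited by the spread between libraries.

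Named are Arntl and Lyz2, the 5 genes per direction with the smallest interaction p and the 5 most raised and 5 most lowered by LPS in both genotypes (average log2 CPM of at least 1). Also named are the 5 strong LPS genes with the narrowest interval, the member with the smallest and the largest interaction p of each gene group, 15 immune and clock genes listed by name, and members needed to describe a group. Cry1, Nr1d2, Cx3cr1 and Lyz1 were also named after their values were seen. The members and lists were chosen with earlier results of these data known. The choice to leave out KO replicates 2 and 6 was made after seeing the data.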

Additional observations from a re-analysis of the deposited data

Results flagged for a closer look

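In groups of 6 KO libraries, 147 sets of values of named genes were examined for a highest or lowest library that lay apart from the other 5 by Dixon's 95% criterion on its gap as a share of the range. It was met by 33, of which 19 were KO replicate 6, 12 KO replicate 2 and 2 another library. Chance flags about 1 in 20 such groups, and genes of 1 library are not independent. All values are CPM.

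In the vehicle library labelled KO replicate 2, LPS-inducible genes were the high outliers: the cytokines Il12b at 4.09, Il6 at 3.07 and Il1b at 24.0, the chemokines Cxcl10 at 8.63 and Cxcl3 at 5.79, the enzymes Nos2 at 2.36 and Acod1 at 47.5, the costimulatory receptor Cd40 at 10.9 and the GTPase Iigp1 at 1.11. The clock gene Nr1d2 was also high there, at 53.3. Under LPS the library of that number was the high outlier for Cxcl3 at 746 and Il6 at 596.

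KO replicate 6 was apart in vehicle for Arntl at 3.01 and Irak3 at 11.1, both low, and for Lyz1 at 130, Nfkbib at 47.7, the peroxiredoxin Prdx1 at 4930 and Tgfb1 at 713, all high. Under LPS it was low for Clock at 19.3, Insig1 at 64.2, Irak3 at 191, Rora at 3.24, Slc7a2 at 954 and Sqle at 63.5. It was high there for Gapdh at 19.7, Lyz1 at 137, Marco at 816, Nfkbib at 284, Prdx1 at 11300, Sgo2a at 2.28 and Tgfb1 at 784. The other 2 were KO vehicle replicate 3, for Casp4 at 11.7 and Hmox1 at 869. What sets these libraries apart was not tested.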

How the results depend on the processing

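The interaction called 0 genes in 39 of 40 alternatives, with 89 to 975 genes at an unadjusted p under 0.05 (0.575 to 6.55%). The exception was DESeq2 without KO replicates 2 and 6, which called 1 gene, Cry1. Leaving out each library or replicate number in turn gave 0 calls and 89 to 308 genes at an unadjusted p under 0.05. The LPS effect in WT gave 7434 to 9070 calls when 1 library or replicate was left out and 5644 with all 36 libraries in 1 fit. In KO it gave 5429 to 9612 calls in the same way, 9612 being without KO replicate 6, and 9765 with voom and sample quality weights. The ratio of response sizes was 0.958 to 0.974 and the Arntl difference -0.476 to -0.237 on leaving out 1 replicate. The share of LPS genes with an interval within 1 was 81.26% without KO replicate 6 and 79.74% without KO replicates 2 and 6. The causes of these shifts were not tested.

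With 1 WT pair correlated under 0.1, the numbers were not treated as pairing the samples of the interaction. As a hint from the data, 17 of 18 libraries correlated best with their own number. With the replicate block the interaction called 0 genes (325 at an unadjusted p under 0.05), LPS in KO called 9774 genes, and 81.71% of intervals lay within 1.

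For 66 named genes and 40 alternatives there were 2638 interaction values. Of these 335 changed sign, in 31 genes, with neither value past an unadjusted p of 0.05. Intervals were wide for genes with few counts in vehicle, such as Il12b and Nos2.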
